A study of Mus musculus with 6 samples.

Results

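Cytochrome P450 and conjugation enzymes were represented by 9 of the 456 genes measured in single mouse kidney cells. They were chosen by name: the P450 genes Cyp2e1, Cyp2a4, Cyp4b1 and Cyp1a1, and the conjugation genes Acsm2, Acsm3, Glyat, Ugt3a2 and Acy3. Kidneys came from 16-week-old C57BL/6 mice that were fed a gel diet of fixed sodium content (104 µmol per kcal) for 1 week. The furosemide group was given the loop diuretic furosemide with the food, at 70 mg/kg body weight each day, and the vehicle group was given the vehicle. Each group had 3 libraries, numbered 1, 3 and 5 for vehicle and 2, 4 and 6 for furosemide, and both groups were labelled wild type. Nothing in the labels said that libraries came from separate animals, so p-values measure the spread between these libraries, which may be technical. The authors had assigned cells to 15 classes, and levels are given here in CPM, the counts summed over the cells of a class in a library and scaled to the panel total of those cells. For treatment the total is first corrected by edgeR's TMM factors (scaled CPM).

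In the proximal tubule, foreign and endogenous compounds are taken up from blood, oxidised and conjugated, and the products are secreted into urine. Cytochrome P450 enzymes insert oxygen into their substrates. Acyl-CoA synthetases of the Acsm family activate small carboxylic acids, glycine N-acyltransferase (Glyat) joins the activated acid to glycine to form hippurate and related products, and glycosyltransferases such as Ugt3a2 attach a sugar. Aminoacylase 3 (Acy3) works in the other direction and removes the acetyl group from mercapturic acids, the end products of glutathione conjugation. Furosemide itself reaches its target in the thick ascending limb after secretion by organic anion carriers of the proximal tubule.

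The identity of a member matters where a near copy exists, and Cyp2a4 has one in Cyp2a5 on the same chromosome. Over 1482 coding bases the GENCODE M21 transcripts of Cyp2a4 and Cyp2a5 differed at 23 bases (98.4% identical), and the longest stretch without a difference was 216 bases. The last 120 coding bases (GRCm38, plus strand, chr7:26314762-26314881 for Cyp2a4 and chr7:26842937-26843056 for Cyp2a5) are shown because bead capture of mRNA starts at the 3′ end, with the 2 differing bases in capitals.
Cyp2a4: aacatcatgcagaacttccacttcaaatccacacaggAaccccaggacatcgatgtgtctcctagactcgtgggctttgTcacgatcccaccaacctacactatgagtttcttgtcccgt
Cyp2a5: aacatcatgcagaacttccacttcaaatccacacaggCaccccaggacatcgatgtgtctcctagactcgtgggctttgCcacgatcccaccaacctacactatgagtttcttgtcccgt
Which part of the transcript the assay counted was not given in the sources used here, so counts under Cyp2a4 may include Cyp2a5 and are uncertain to that extent. Ugt3a2 shared 93.2% of coding bases with Ugt3a1, whereas Acsm2 and Acsm3 shared 55.2%.

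RefSeq start regions (GRCm38.p6, 250 bases before to 50 after the start) were matched for 8 members, in 9 entries of which 2 belong to Acsm2. The letters GCGTG, the core that the aryl hydrocarbon receptor binds, were searched on both strands and were present in 2 of these 9 entries and in 32.39% of all 32851 regions of 300 bases. The 250 bases before the start of Cyp1a1 and of Acsm3, the holders of that core, are shown because these genes were counted in different cell classes, with each GCGTG or its reverse complement in capitals. Cyp1a1 lies on the plus strand at chr9:57697363-57697612, and the core began 54 bases before the start. Acsm3 lies on the plus strand at chr7:119760673-119760922, with cores beginning 150 and 50 bases before the start.
Cyp1a1: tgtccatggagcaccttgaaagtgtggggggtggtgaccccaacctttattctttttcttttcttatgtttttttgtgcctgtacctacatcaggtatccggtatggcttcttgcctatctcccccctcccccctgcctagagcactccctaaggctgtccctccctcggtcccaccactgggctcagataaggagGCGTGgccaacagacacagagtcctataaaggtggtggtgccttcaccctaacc
Acsm3: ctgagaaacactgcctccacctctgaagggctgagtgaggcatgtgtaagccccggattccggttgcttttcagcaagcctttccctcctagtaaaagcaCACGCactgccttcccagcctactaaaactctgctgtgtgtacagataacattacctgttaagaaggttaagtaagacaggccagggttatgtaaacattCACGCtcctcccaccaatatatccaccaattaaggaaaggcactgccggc
The letters GTTAAT, part of the motif of hepatocyte nuclear factor 1, were present on either strand in the start regions of Cyp2a4 and in 1 entry of Acsm2 and in 7.1% of all regions. These are letter matches and say nothing of binding.

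The table held 22154 cells and between 4819988 and 7635509 counts per library, and the proximal classes held 10214 of the cells. Identifiers of 196 cells occurred in more than 1 library (392 cells), and 24 of these 196 fell in the same class in each library. Leaving out these cells, a choice made after seeing the data, no member was called in any comparison with furosemide described here (lowest edgeR adjusted p = 0.146). The proximal class names fitted their markers along the tubule: the ratio of Proximal s2/s3 to Proximal s1/s2 was 0.0302 to 0.0544, with a median of 0.0391 over the 6 libraries for the early-segment glucose carrier Slc5a2, and 133 to 296, with a median of 183 for the late-segment amino acid carrier Slc7a13. The class OMCD principal went against its name, since in vehicle its mean levels were 26341 CPM of Slc4a1 and 31749.7 CPM of Aqp6, markers of acid-secreting intercalated cells, and 129 CPM of the principal cell channel Aqp2. It is called the OMCD class here. Kap, an androgen-regulated gene, alone held 42.0 to 46.7% of panel counts in Proximal s2/s3 and 0.265 to 1.13% in Proximal s1/s2, which lowers every other gene's CPM in the former.

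Of the 9 members, 8 were genes of the proximal tubule and Cyp1a1 was not. The proximal classes held between 97.6% (Acy3) and 99.5% (Acsm2) of a member's counts for these 8 genes. Cyp1a1 had 883 counts in all, none of them in the 10214 proximal cells, and 97.3% in the classes AIC, BIC and OMCD, which carry intercalated cell markers. Because the classes were built from these same counts, levels in different classes are described without a test.

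**Figure D1:**
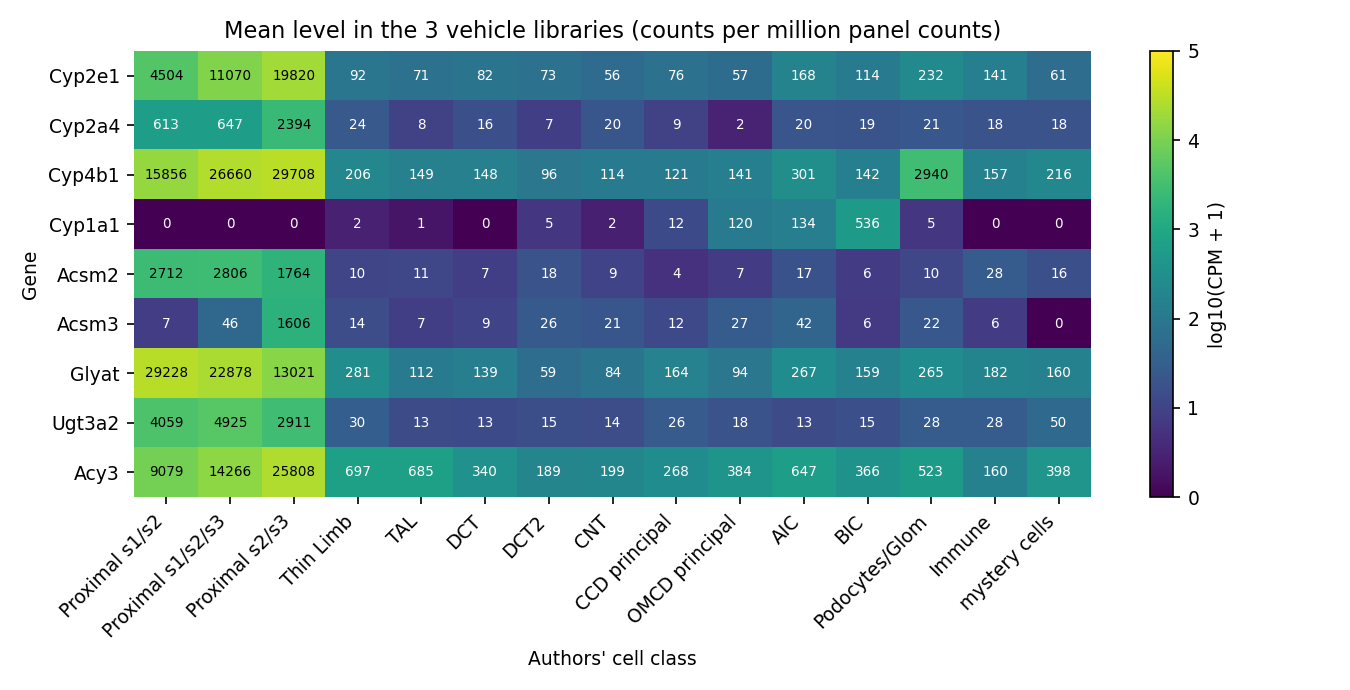
Mean level of each member (rows) in each of the authors' classes (columns) over the 3 vehicle libraries, printed as CPM and coloured by log10(CPM + 1). The 8 proximal genes have their highest level in 1 of the 3 columns on the left, and Cyp1a1 is at 0 there and highest in BIC at 536 CPM.

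Cyp2e1, which oxidises ethanol and other small molecules, had a steep gradient along the proximal classes. Its level in Proximal s2/s3 was 20308, 23141 and 16010.4 CPM in vehicle libraries 1, 3 and 5, a mean of 19819.8 ± 3590.3 (SD, n = 3). It was 11069.7 ± 1775 CPM in Proximal s1/s2/s3 and 4504 ± 1416 CPM in Proximal s1/s2, and the vehicle libraries of neighbouring classes did not overlap in this order. In each of the 6 libraries the level in Proximal s2/s3 was above that in Proximal s1/s2, with ratios of 3.92 to 6.96, with a median of 4.17. The share of cells with at least 1 Cyp2e1 count was 67.1% in Proximal s1/s2, 87.5% in Proximal s1/s2/s3 and 99.3% in Proximal s2/s3, where median depths were 805.5, 1460.0 and 1472 counts per cell.

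Cyp2a4, a steroid hydroxylase, stood out in the latest class. In Proximal s2/s3 it measured 2538, 1941 and 2703 CPM in vehicle libraries 1, 3 and 5, a mean of 2394 ± 401 (SD, n = 3, as for all mean levels in vehicle here). The other proximal classes overlapped each other, with 647 ± 91.7 CPM in Proximal s1/s2/s3 and 613 ± 64.2 CPM in Proximal s1/s2. The ratio of Proximal s2/s3 to Proximal s1/s2 was 2.84 to 4.91, with a median of 3.46 across libraries. Cyp2a4 was found in 69.9% of Proximal s2/s3 cells and in 34.7% of Proximal s1/s2 cells.

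Cyp4b1, which hydroxylates fatty acids and foreign compounds, had a flatter profile and a further site outside the tubule. Its level was 29708 ± 3031 CPM in Proximal s2/s3 and 26659.8 ± 2293 CPM in Proximal s1/s2/s3, with overlapping vehicle libraries, and 15856 ± 1441 CPM in Proximal s1/s2. The next class was Podocytes/Glom, at 4671, 2206 and 1943 CPM in vehicle libraries 1, 3 and 5. All 3 of these libraries lay above the highest value of any later class in the order, and the mean of the next class, AIC, was 301 ± 60.7 CPM.

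Within the 514 cells of Podocytes/Glom, Cyp4b1 was counted more often in cells with endothelial markers. The class held 376 cells with a count of the endothelial cadherin Cdh5 and 69 cells with a count of the podocyte gene Nphs1. Cyp4b1 was counted in 66.8% of cells with Cdh5 (95% exact binomial interval 61.7 to 71.5%) and in 22.5% of cells without it (15.8 to 30.3%), at median depths of 658 and 636 counts per cell. For the endothelial receptor Tek the shares were 70.1% and 32.9%. For Nphs1 they were 56.5% and 54.6%. In cells with a count of Col1a1, a fibroblast collagen, the share was 11.8% of 34 cells. Intervals here and below cover counting error only.

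Cyp1a1, which oxidises polycyclic aromatic compounds, was counted almost only in classes with intercalated cell markers. In BIC, the class led by the bicarbonate exchanger Slc26a4, it measured 495, 592 and 519.7 CPM in vehicle libraries 1, 3 and 5, a mean of 536 ± 50.2. AIC had 134 ± 83.6 CPM and the OMCD class 120.4 ± 60.9 CPM, with overlapping libraries, and every vehicle library of BIC was above every vehicle library of AIC and OMCD. CCD principal cells followed at 12.2 ± 13.3 CPM, from 8 vehicle counts. Cyp1a1 was counted in 0 of 546 immune cells, so that a share of cells with a count of up to 0.549% (3 counts of the total) is possible, and in 0 of 10214 proximal cells, for which that limit is 0.0294%.

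The counts in BIC were spread over many cells rather than held by a few: 287 of 626 BIC cells (45.8%) had a count, and 30 cells had 5 or more. AIC had 12.1% and the OMCD class 14.7%. With each cell thinned to 500 counts, the shares were 22.8% of 615 BIC cells, 5.39% of 334 AIC cells and 5.75% of 365 OMCD cells. In the 140 thinned BIC cells with Cyp1a1 the mean was 30.4 counts of Slc26a4 and 0.271 of Slc4a1, against 24.3 and 1.33 in the 475 without it. In the OMCD class, the 21 cells with Cyp1a1 had a mean of 8.86 counts of Slc26a4 and those without it 1.40, while the means of Slc4a1 were 16.4 and 15.04. A count of Slc4a1 was found in 57.1% of the former and 90.4% of the latter. AIC differed, since its 18 cells with Cyp1a1 had a mean of 1.44 counts of Slc26a4 and the 316 without it 1.16. A count of Slc26a4 was found in 11.1% and 12.3% of these AIC cells, and their means of Slc4a1 were 27.1 and 19.2. The related gene Cyp1b1 had no count in any of these thinned cells.

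Among the conjugation genes, Glyat ran opposite to Cyp2e1. It measured 27803, 29284 and 30596 CPM in vehicle libraries 1, 3 and 5 in Proximal s1/s2, a mean of 29228 ± 1398. It was 22878 ± 965 CPM in Proximal s1/s2/s3 and 13021 ± 707 CPM in Proximal s2/s3, and neighbouring classes did not overlap. At least 99.8% of the cells of each proximal class held a Glyat count.

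Acsm2, an activator of medium-chain and aromatic acids, was at 2806 ± 106 CPM in Proximal s1/s2/s3 and 2712 ± 192 CPM in Proximal s1/s2, with overlapping libraries. It was at 1764 ± 262 CPM in Proximal s2/s3. This last step turned round in the median, but not in every library, when Kap was left out of the total. Ugt3a2 had the same order, with 4925 ± 494, 4059 ± 439.9 and 2911 ± 504 CPM, and its last step turned round in every library without Kap. Acy3 instead was highest in Proximal s2/s3, at 29261, 25026 and 23138 CPM in vehicle libraries 1, 3 and 5, then 14266 ± 1210.2 CPM in Proximal s1/s2/s3 and 9079 ± 808 CPM in Proximal s1/s2. Its ratio of Proximal s2/s3 to Proximal s1/s2 was 2.54 to 3.29, with a median of 2.89.

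Acsm3, of the same enzyme family as Acsm2, had most of its counts in the latest class. It measured 1303, 2610.4 and 905 CPM in vehicle libraries 1, 3 and 5 in Proximal s2/s3, a spread of 1606 ± 892 in which vehicle library 3 was the highest. Its level was 45.7 ± 13.3 CPM in Proximal s1/s2/s3. In Proximal s1/s2 it was 7.27 ± 4.32 CPM from 11 vehicle counts, at or under the levels of several classes outside the proximal tubule. The ratio of Proximal s2/s3 to Proximal s1/s2/s3 was 15.2 to 78.8, with a median of 30.5. Acsm3 was counted in 60.2% of Proximal s2/s3 cells, 4.90% of Proximal s1/s2/s3 cells and 0.573% of Proximal s1/s2 cells.

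The orders of Acsm2 and Ugt3a2 depended on the scale, since Kap fills so much of Proximal s2/s3. For Acsm2 the median ratio of Proximal s2/s3 to Proximal s1/s2 was 0.632 in CPM and 1.16 with Kap left out of the total, and for Ugt3a2 it was 0.686 and 1.21. Without Kap the libraries ran from 0.931 to 1.22 for Acsm2 and from 1.08 to 1.38 for Ugt3a2. Glyat stayed lower in Proximal s2/s3 on either scale (0.439 and 0.793). The higher levels in Proximal s2/s3 grew without Kap, to median ratios of 7.38 for Cyp2e1, 6.09 for Cyp2a4, 5.12 for Acy3 and 3.22 for Cyp4b1, against 4.17, 3.46, 2.89 and 1.83 with it. The ratio of Proximal s2/s3 to Proximal s1/s2/s3 for Cyp4b1 also depended on the scale. It was 0.981 to 1.25 over the 6 libraries in CPM and 1.68 to 1.93 without Kap. Leaving Kap out was chosen after the values had been seen.

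Cells of Proximal s2/s3 also differed among themselves, and Acsm3 and Cyp2a4 were counted more often where the late marker Slc7a13 was higher. After each cell was thinned at random to 500 counts (1283 cells of all classes were shallower and left out), Acsm3 was counted in 18.1% (libraries 15.9 to 27.5%) of cells with 0 to 2 Slc7a13 counts, 41.4% (libraries 37.7 to 63.1%) with 3 to 9 and 47.3% (libraries 36.1 to 67.7%) with 10 or more, given as medians over the 6 libraries. Cyp2a4 went from 35.1% (libraries 25.8 to 40.1%) over 60.0% (libraries 51.1 to 62.8%) to 71.2% (libraries 39.6 to 75.3%). Acsm2 had 47.7% (libraries 41.9 to 55.0%), 48.7% (libraries 36.3 to 57.9%) and 49.3% (libraries 37.0 to 59.4%) in the same bins, a range within the spread of its libraries. Against the early marker Slc5a2 both genes were lower: Acsm3 was in 40.6% (libraries 34.2 to 63.1%) of cells without Slc5a2 and 16.6% (libraries 11.3 to 19.3%) of cells with it, and Cyp2a4 in 57.2% (libraries 45.5 to 64.8%) and 31.3% (libraries 23.1 to 36.1%). The groups of cells were cut from thinned counts of the same cells, so these shares describe them without a test.

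**Figure D2:**
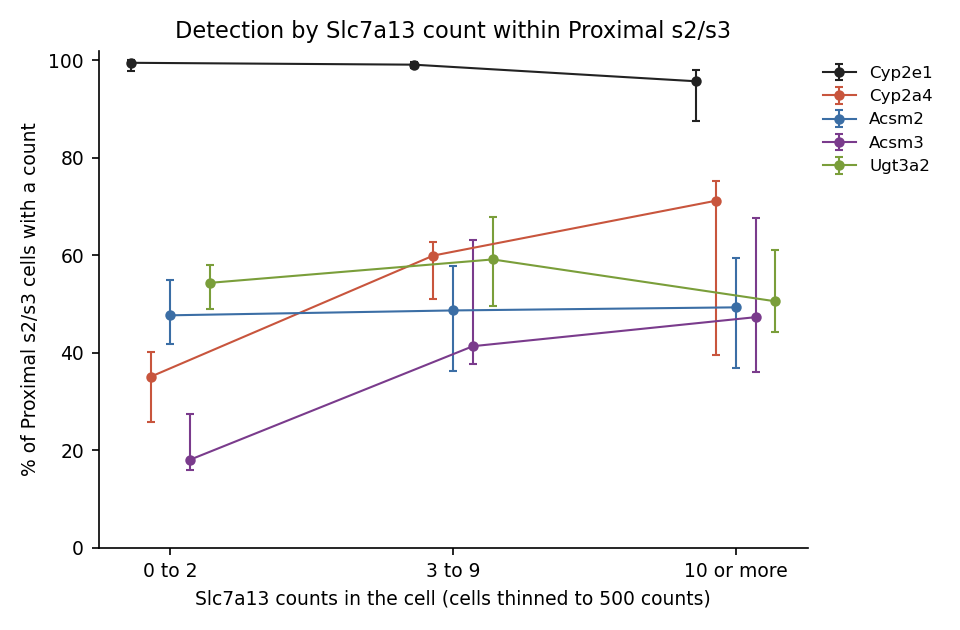
Share of Proximal s2/s3 cells with at least 1 count of 5 members (vertical axis, percent) by the cell's Slc7a13 count (horizontal axis), after thinning to 500 counts. Points are medians over 6 libraries and bars the lowest and highest library. Acsm3 goes from 18.1% to 47.3% and Cyp2a4 from 35.1% to 71.2%, while Acsm2 lies between 47.7% and 49.3%.

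Within a class some members were counted together in cells and others apart. Spearman's rho over thinned cells of a library, as the median of 6 libraries with the lowest and highest in brackets, was 0.56 (0.49 to 0.60) for Cyp2e1 with Cyp4b1 in Proximal s1/s2, 0.60 (0.55 to 0.64) in Proximal s1/s2/s3 and 0.43 (0.35 to 0.55) in Proximal s2/s3. Cyp4b1 with Acy3 gave 0.48 (0.42 to 0.54) in Proximal s1/s2, 0.52 (0.50 to 0.58) in Proximal s1/s2/s3 and 0.18 (0.11 to 0.28) in Proximal s2/s3. The medians of Glyat with Ugt3a2 were below 0, at -0.28 (-0.36 to -0.25), -0.092 (-0.15 to -0.031) and -0.27 (-0.34 to -0.20) in the same order of classes. Glyat with Cyp4b1 gave -0.088 (-0.19 to 0.0015), -0.15 (-0.17 to -0.092) and -0.31 (-0.38 to -0.20). Acsm2 with Glyat, which act in sequence, gave -0.046 (-0.12 to 0.029), 0.11 (0.0091 to 0.12) and -0.015 (-0.094 to 0.024) in these classes. Members also varied with segment markers within a class. In Proximal s1/s2/s3 the median rho with Slc5a2 and with Kap was -0.46 and 0.55 for Cyp2e1. There it was -0.34 and 0.30 for Cyp4b1, and -0.41 and 0.42 for Acy3. In Proximal s2/s3 it was -0.074 and -0.051 for Cyp2e1, and 0.31 and -0.37 for Glyat. The part of position along the tubule in the member pairs was not tested. All values share each cell's total and are descriptions.

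Outside the proximal tubule, detection of Acy3 in some classes was above that in immune cells. Immune cells, not known for these enzymes, were taken as the background: a count was found in 6.96% of them for Cyp2e1, 12.6% for Cyp4b1, 13.004% for Glyat, 12.5% for Acy3 and 1.83% for Acsm2, at a median depth of 817 counts. In the thick ascending limb (TAL), at 1501.5 counts, the shares were 9.995%, 18.4%, 13.7%, 56.0% and 1.72%. Thinned to 500 counts, Acy3 was in 25.3% of TAL cells (95% exact binomial interval 23.9 to 26.6%) and 26.7% of Thin Limb cells, against 9.66% of immune cells (7.13 to 12.7%). Over the same thinned cells Glyat was in 5.62% and 8.80%, and Cyp4b1 in 7.67% and 9.44%, so that TAL was above the background for Acy3 and not for these.

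The panel genes whose vehicle levels were most like a member's over the 15 classes, by Pearson's r of log2(CPM + 1), followed the same division. For Cyp2e1 they were Slc22a6 (0.991), Mep1a (0.979) and Slc13a3 (0.979), with Slc22a6 the organic anion carrier OAT1. For Acsm3 they were Slc7a13 (0.867), Tmigd1 (0.841) and Kap (0.746), and for Cyp2a4 Cyp2e1 (0.964), Cyp2d9 (0.958) and Mep1a (0.955). For Cyp4b1 they were Cyp2e1 (0.961), Tkfc (0.959) and Tmem252 (0.955), and for Acy3 Slc27a2 (0.967), Cyp2e1 (0.954) and Slc22a6 (0.954). Glyat was close to Spink1 (0.991) and Pck1 (0.990), of which Pck1 is an enzyme of glucose synthesis. Acsm2 was closest to Pck1 (0.983), Cyp2d9 (0.979) and Slc13a3 (0.976), and Ugt3a2 was close to Slc22a8 (0.988) and Pck1 (0.983). Cyp1a1 was closest to Trpc5 (0.935), Slc4a9 (0.934) and Slc26a4 (0.931), and the chloride-bicarbonate exchanger genes Slc26a4 and Slc4a9 are markers of base-secreting intercalated cells. With 15 classes that share libraries, and most genes split between proximal and other classes, high values of r are usual and are given as a ranking.

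The authors' other clustering cut the proximal cells more finely. Its cluster Proximal sub1, 531 cells that all lay in Proximal s1/s2/s3, had 17108 to 22593 CPM of Cyp2e1 over the 6 libraries and 104 to 188 CPM of Acsm3. Proximal s3 had 16010.4 to 23141 and 905 to 2610.4 CPM, so on this scale Cyp2e1 overlapped between these clusters and Acsm3 did not. The clusters were not compared with Kap left out of the total. Cluster Prox sub3, 318 cells of which 316 lay in Proximal s1/s2, had 22405 to 41887 CPM of Glyat, 944 to 1694 CPM of Ugt3a2 and no count of Acsm3. A cluster of 40 cells named CNT sub1, of which 34 were AIC cells in the 15 classes, had Cyp1a1 in 42.5% of its cells, and the cluster BIC had it in 46.4% of 612.

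Furosemide was compared with vehicle in each class with edgeR's quasi-likelihood test, with Benjamini-Hochberg adjustment over all genes tested in the class. No member passed an adjusted p of 0.05 in any class. In the proximal classes 0 of 7, 0 of 8 and 0 of 8 tested members were called in Proximal s1/s2, s1/s2/s3 and s2/s3, where the background was 0% of 273, 0% of 280 and 0% of 291 genes. Cyp1a1 was too low to be tested in these classes, and Acsm3 in Proximal s1/s2. DESeq2 and limma-voom called no member there either, with DESeq2 calling 0.368%, 0.714% and 1.03% of genes. At an unadjusted p under 0.05 there was 1 of 23 pairs of member and proximal class, where the background was 5.13%, 7.14% and 7.22%. The proximal log2 changes ran from -0.20 to 0.47.

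**Figure D3:**
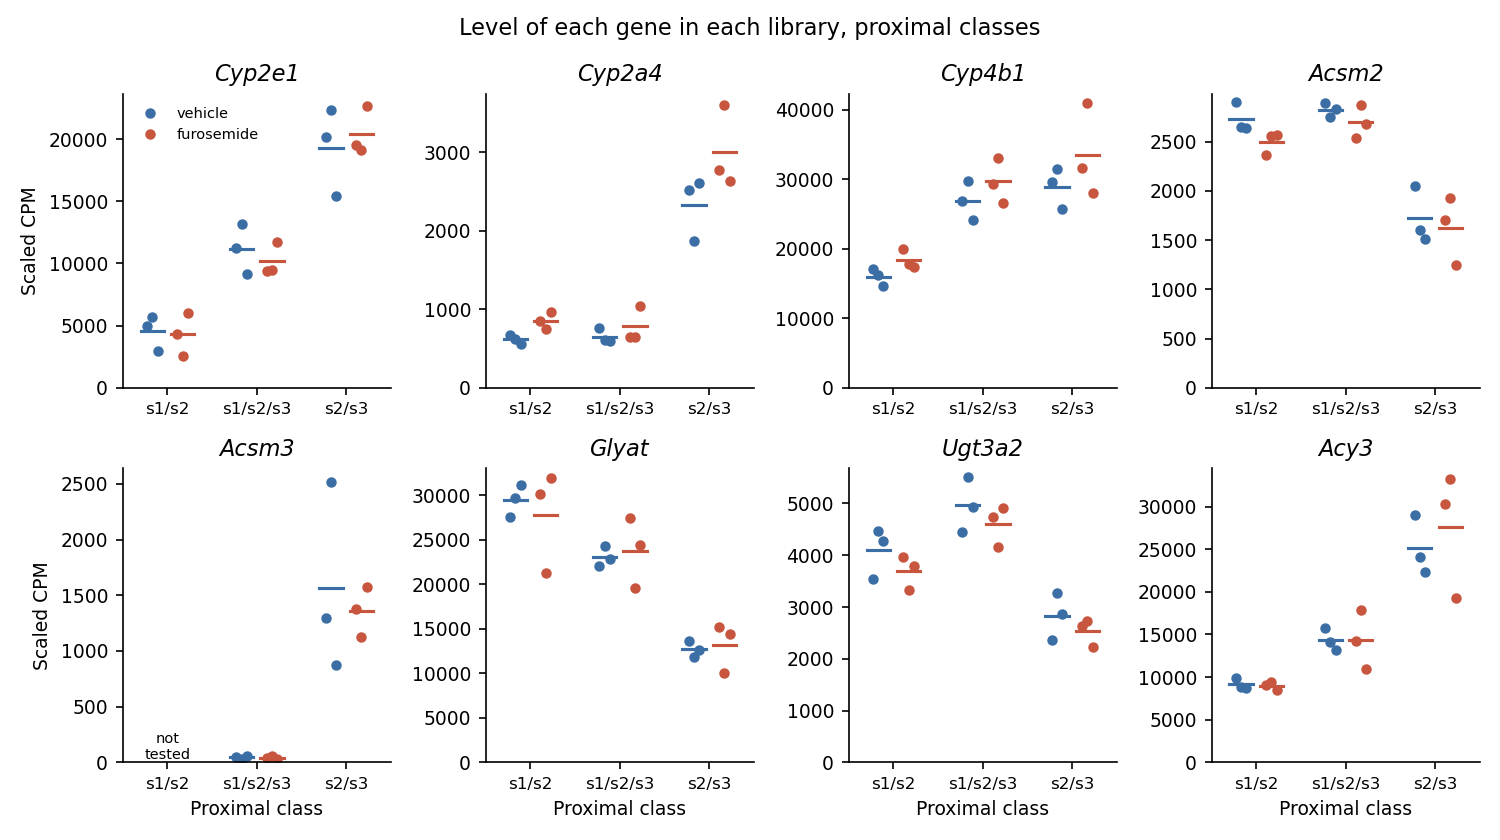
Level of the 8 proximal members (scaled CPM, linear axes from 0) in each vehicle (blue) and furosemide (red) library in the 3 proximal classes, with group means as lines. Groups overlap in all but 4 of the 23 tested pairs of gene and class: Cyp2a4, Cyp4b1 and Acsm2 in Proximal s1/s2, and Cyp2a4 in Proximal s2/s3.

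Within the proximal classes, Cyp2a4 had the lowest adjusted p. In Proximal s1/s2 it measured 673, 619.6 and 560.0 scaled CPM with vehicle (libraries 1, 3, 5) against 852, 752 and 967 with furosemide (libraries 2, 4, 6), and all furosemide libraries lay above all vehicle libraries. The log2 change was 0.47 ± 0.14 (SE), 95% interval 0.14 to 0.80, with an edgeR adjusted p of 0.459 (unadjusted under 0.05), and 0.24 to 0.888 over the alternatives. In Proximal s2/s3 it measured 2519.5, 1871 and 2605 scaled CPM with vehicle (libraries 1, 3, 5) against 2778, 3598 and 2637 with furosemide (libraries 2, 4, 6), again without overlap, and the log2 change was 0.37 ± 0.21 (SE), 95% interval -0.12 to 0.85 (edgeR adjusted p = 0.837). In Proximal s1/s2/s3 the groups overlapped, furosemide library 6 was the highest at 1043 scaled CPM, and the log2 change was 0.26 ± 0.22 (SE), 95% interval -0.25 to 0.78. The share of Proximal s1/s2 cells with a Cyp2a4 count was 31.7% ± 4.48 in vehicle and 38.4% ± 2.32 in furosemide (SD, n = 3, two-sided exact permutation p = 0.1, below which this design cannot go, and 0.823 adjusted over the 144 shares tested).

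Groups that did not overlap were found for 3 of 7 members in Proximal s1/s2, where the background was 11.0% of genes, for 0 of 8 in Proximal s1/s2/s3 (10.4%) and for 1 of 8 in Proximal s2/s3 (10.7%). The other members of this kind in Proximal s1/s2 were Cyp4b1 and Acsm2, in opposite directions. Cyp4b1 measured 17051, 16288 and 14573 scaled CPM with vehicle (libraries 1, 3, 5) against 19929, 17832 and 17315 with furosemide (libraries 2, 4, 6), a log2 change of 0.20 ± 0.13 (SE), 95% interval -0.11 to 0.51 (edgeR adjusted p = 0.799). Acsm2 measured 2908, 2649.9 and 2637 scaled CPM with vehicle (libraries 1, 3, 5) against 2364, 2556 and 2570.4 with furosemide (libraries 2, 4, 6), a log2 change of -0.13 ± 0.11 (SE), 95% interval -0.39 to 0.13 (edgeR adjusted p = 0.923). Kap held a mean of 0.835% of the counts in vehicle and 0.378% in furosemide in this class, without overlap (edgeR adjusted p = 0.459). In Proximal s1/s2/s3 it held 11.6% and 7.81%, also without overlap (edgeR adjusted p = 0.725). In Proximal s2/s3 it held 44.1% and 43.6%, with overlap. The part of Kap in the members' values was not tested.

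For Cyp2e1 the vehicle libraries alone spanned more than the difference between groups. It measured 20163, 22311 and 15430.2 scaled CPM with vehicle (libraries 1, 3, 5) against 19564, 19128 and 22665 with furosemide (libraries 2, 4, 6) in Proximal s2/s3, and the log2 change was 0.084 ± 0.17 (SE), 95% interval -0.32 to 0.49. In Proximal s1/s2 it was -0.077 ± 0.36 (SE), 95% interval -0.94 to 0.79, the widest interval for this gene among the 3 proximal classes, with vehicle library 5 and furosemide library 4 low. Cyp4b1 in Proximal s2/s3 measured 29589.9, 31518 and 25666 scaled CPM with vehicle (libraries 1, 3, 5) against 31613, 41029.9 and 28068 with furosemide (libraries 2, 4, 6), with library 4 the highest, and its log2 change was 0.21 ± 0.18 (SE), 95% interval -0.20 to 0.63. It was 0.14 ± 0.14 (SE), 95% interval -0.18 to 0.46 in Proximal s1/s2/s3.

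Apart from Acsm2 in Proximal s1/s2, the groups overlapped for every conjugation gene tested in a proximal class. Glyat in Proximal s1/s2 measured 27567, 29735 and 31113 scaled CPM with vehicle (libraries 1, 3, 5) against 30138, 21218 and 31948 with furosemide (libraries 2, 4, 6). Furosemide library 4 was the lowest, and the log2 change was -0.086 ± 0.18 (SE), 95% interval -0.52 to 0.35. In Proximal s1/s2/s3 and s2/s3 the Glyat change was 0.045 ± 0.15 (SE), 95% interval -0.30 to 0.39, and 0.059 ± 0.19 (SE), 95% interval -0.38 to 0.50. Acy3 in Proximal s2/s3 measured 29052, 24128 and 22299 scaled CPM with vehicle (libraries 1, 3, 5) against 30329, 33266 and 19229 with furosemide (libraries 2, 4, 6), with furosemide libraries at the top and the bottom of the 6, and a log2 change of 0.13 ± 0.23 (SE), 95% interval -0.39 to 0.66. The interval was narrower in Proximal s1/s2, at -0.024 ± 0.12 (SE), 95% interval -0.31 to 0.26, which corresponds to a fold between 0.808 and 1.20.

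Ugt3a2 was lower on average with furosemide in each proximal class and overlapped in each. Its log2 changes were -0.15 ± 0.14 (SE), 95% interval -0.49 to 0.19 in Proximal s1/s2, -0.11 ± 0.13 (SE), 95% interval -0.42 to 0.20 in Proximal s1/s2/s3 and -0.16 ± 0.18 (SE), 95% interval -0.59 to 0.27 in Proximal s2/s3. For Acsm2 the log2 change was -0.066 ± 0.11 (SE), 95% interval -0.32 to 0.19 in Proximal s1/s2/s3 and -0.081 ± 0.22 (SE), 95% interval -0.60 to 0.43 in Proximal s2/s3. Acsm3 in Proximal s2/s3 measured 1294, 2517 and 872 scaled CPM with vehicle (libraries 1, 3, 5) against 1375, 1122 and 1573 with furosemide (libraries 2, 4, 6), and its log2 change of -0.20 ± 0.38 (SE), 95% interval -1.08 to 0.68 allows folds from 0.472 to 1.60. Without vehicle library 3 its log2 change was 0.30, in the other direction, and without vehicle library 5 it was -0.57.

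**Figure D4:**
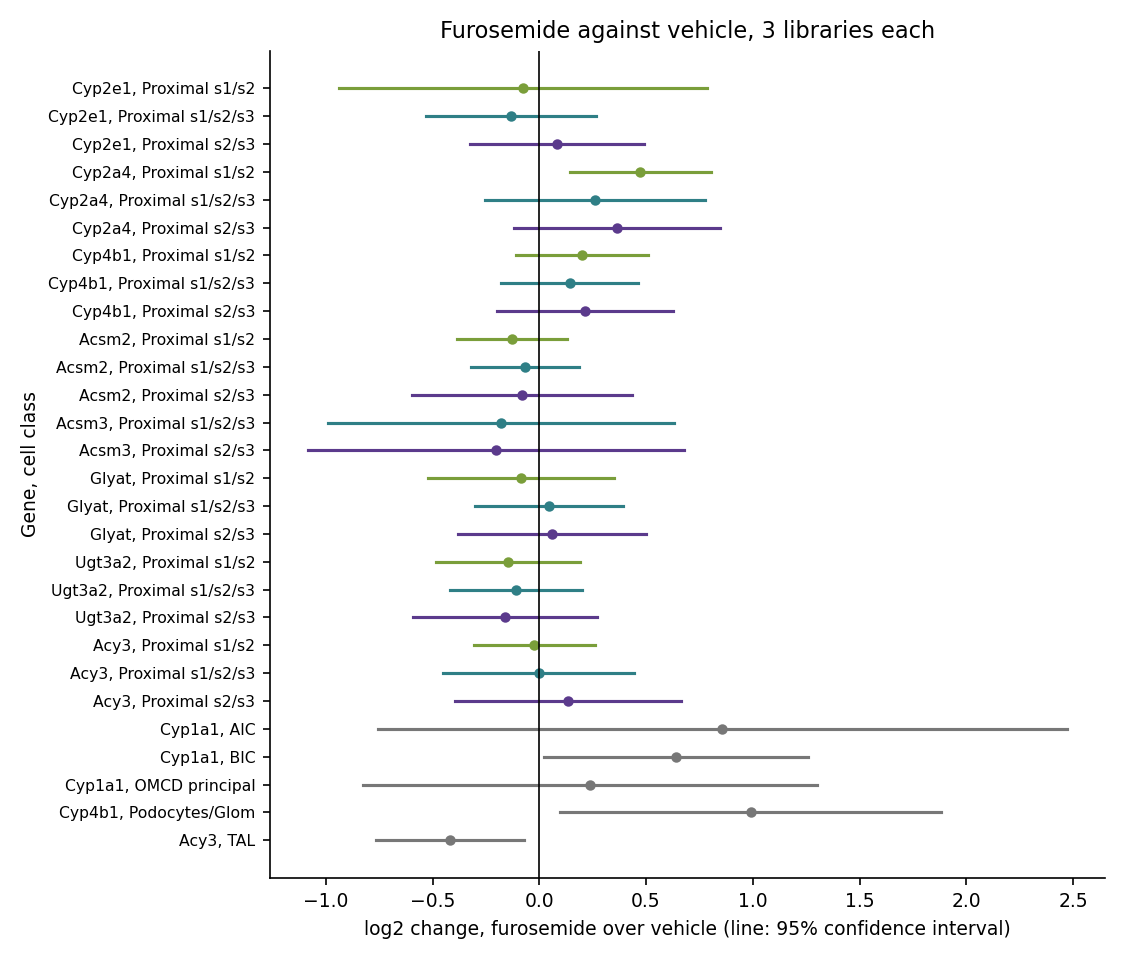
Log2 change of furosemide over vehicle (horizontal axis) with its 95% confidence interval for each member tested in a proximal class (coloured by class) and for 5 pairs in other classes (grey). Of the proximal intervals, the one for Cyp2a4 in Proximal s1/s2 (0.14 to 0.80) excludes 0, and no pair passed the adjusted threshold.

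With the proximal classes summed, 0 of 8 members were called, where the background was 0.299% of 335 genes, and 0 of 8 had an unadjusted p under 0.05, where the background was 7.16%. Cyp2a4 had the largest log2 change there, 0.60 ± 0.28 (SE), 95% interval -0.072 to 1.27 (edgeR adjusted p = 0.722), with overlapping groups. Sums over classes also move with the mix of classes in a library. Whether an effect differed between proximal classes was tested as an interaction with the library as a block: none of 24 differences passed (lowest adjusted p = 0.861, 0 at an unadjusted p under 0.05), where 0% of 298, 314 and 307 genes were called and 6.71%, 4.46% and 4.56% had an unadjusted p under 0.05. For Cyp2a4 the change in Proximal s1/s2/s3 minus that in Proximal s1/s2 was -0.27 ± 0.15 (SE, log2).

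Cyp1a1 was tested where it is expressed. In BIC it measured 474, 576 and 519 scaled CPM with vehicle (libraries 1, 3, 5) against 1150.0, 762 and 531 with furosemide (libraries 2, 4, 6). Furosemide libraries 2 and 4 were above all vehicle libraries and library 6 was among them. The log2 change was 0.64 ± 0.27 (SE), 95% interval 0.021 to 1.26, with an edgeR adjusted p of 0.349, where 0.408% of 245 genes were called and 12.7% had an unadjusted p under 0.05. Without furosemide library 2 the log2 change was 0.33 and without library 6 it was 0.86, with edgeR adjusted p from 0.103 to 0.72 over all alternatives. The share of BIC cells with a count was 36.3, 43.2 and 38.8% in vehicle and 63.7, 58.0 and 40.2% in furosemide libraries (two-sided exact permutation p = 0.2, adjusted 0.823). In AIC and in the OMCD class the groups overlapped, with log2 changes of 0.86 ± 0.69 (SE), 95% interval -0.76 to 2.47, and 0.24 ± 0.46 (SE), 95% interval -0.83 to 1.30. The sum of 6 proximal markers (Slc5a2, Slc22a6, Slc22a8, Slc7a13, Slc22a7 and Gatm) in BIC was 240.3 to 343 CPM in the vehicle and 83.7 to 258 CPM in the furosemide libraries. Its part in the Cyp1a1 result was not tested.

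**Figure D5:**
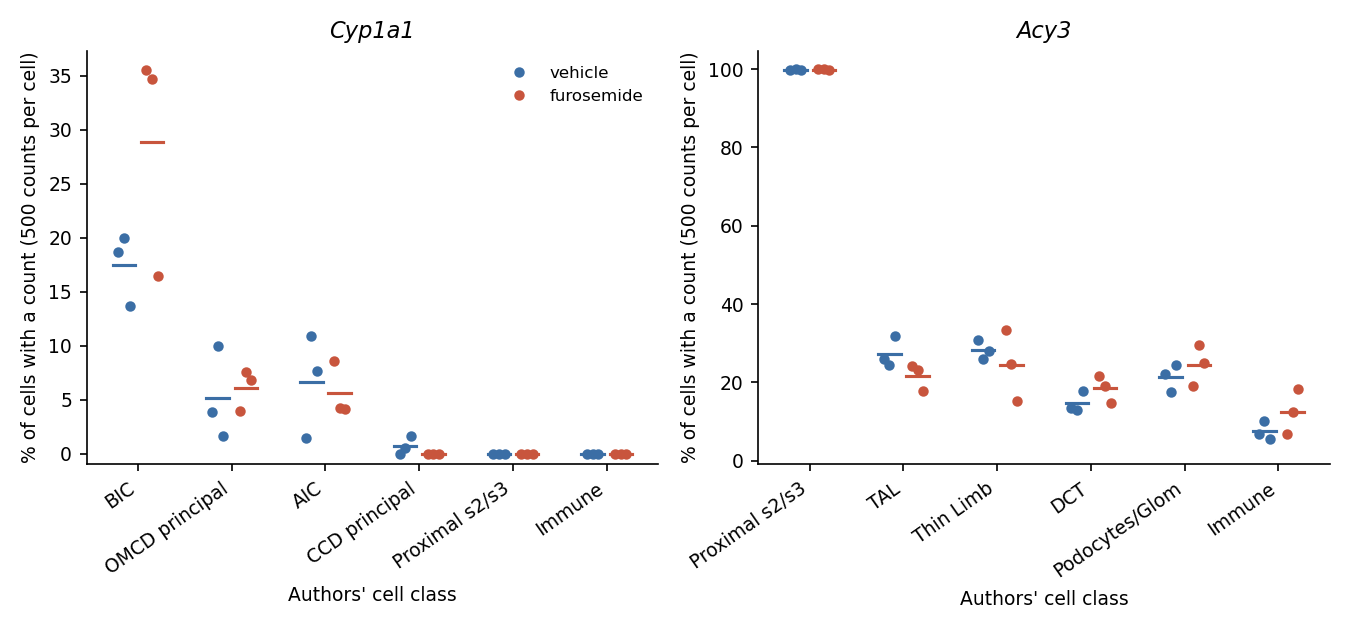
Share of cells with at least 1 count after thinning to 500 counts (vertical axis, percent) per library, for Cyp1a1 (left) and Acy3 (right) in selected classes, vehicle in blue and furosemide in red, with group means as lines. Cyp1a1 is highest in BIC and at 0 in Proximal s2/s3 and immune cells, and Acy3 is near 100% in Proximal s2/s3 and above the immune cells in TAL and Thin Limb.

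In the 12 other classes 0 of 48 tested pairs passed, and 6 had an unadjusted p under 0.05. Taking AIC, BIC, CCD principal, CNT, DCT, DCT2, Immune, OMCD, Podocytes/Glom, TAL and Thin Limb in turn, 0, 0.408, 0, 5.08, 4.73, 1.42, 0, 0, 0.418, 4.73 and 1.88% of genes passed. The percentages with an unadjusted p under 0.05 were 5.94, 12.7, 18.9, 21.5, 14.5, 11.4, 5.61, 12.7, 6.28, 17.7 and 15, and those without overlap were 14.2, 20.8, 23.1, 27.3, 19.6, 19.4, 10.2, 16.4, 9.62, 23.7 and 20.3. The class mystery cells had no member with enough counts. Groups did not overlap in 6, which were Cyp4b1 in CCD principal and Thin Limb and Acy3 in DCT2, with higher values under furosemide, and Cyp4b1 in AIC and Acy3 in OMCD and TAL, with lower ones. Cyp4b1 in AIC had a log2 change of -0.89 ± 0.52 (SE), 95% interval -2.12 to 0.33, and Acy3 had 0.37 ± 0.23 (SE), 95% interval -0.14 to 0.88 in DCT2 and -0.41 ± 0.23 (SE), 95% interval -0.94 to 0.11 in OMCD. Of the 6 pairs with an unadjusted p under 0.05, 4 were Cyp4b1 with higher means under furosemide, in Podocytes/Glom, CCD principal, Thin Limb and Immune. Immune, taken above as the background for these enzymes, had means of 159 scaled CPM in vehicle and 349 in furosemide, with overlapping groups. The log2 change of Cyp4b1 there was 1.09 ± 0.47 (SE), 95% interval 0.0075 to 2.18 (edgeR adjusted p = 0.878). In Podocytes/Glom Cyp4b1 measured 4362, 2322 and 2029 scaled CPM with vehicle (libraries 1, 3, 5) against 4308, 6567 and 6434 with furosemide (libraries 2, 4, 6), a log2 change of 0.99 ± 0.38 (SE), 95% interval 0.097 to 1.88 (edgeR adjusted p = 0.656, background 0.418% called). The sum of 6 proximal markers in that class was 199 to 582 CPM in the vehicle and 605 to 1549 CPM in the furosemide libraries, and its part in the result was not tested. In CCD principal the log2 change was 0.82 ± 0.25 (SE), 95% interval 0.25 to 1.40 (adjusted p = 0.158), in Thin Limb 1.07 ± 0.35 (SE), 95% interval 0.26 to 1.88 (adjusted p = 0.1995), both by edgeR and without overlap, as were 23.1% and 20.3% of genes in these classes. Their levels, 119 and 224 scaled CPM in vehicle, stood beside proximal marker sums of 141 to 303 CPM in the vehicle and 181 to 306 CPM in the furosemide libraries, and 388 to 476 CPM in the vehicle and 283 to 889.8 CPM in the furosemide libraries.

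Acy3 in TAL, the class on which furosemide acts, measured 632, 609 and 734 scaled CPM with vehicle (libraries 1, 3, 5) against 569, 464 and 444 with furosemide (libraries 2, 4, 6). All furosemide libraries lay below all vehicle libraries, and groups did not overlap in either direction for 23.7% of TAL genes. The log2 change was -0.42 ± 0.15 (SE), 95% interval -0.77 to -0.073, with an edgeR adjusted p of 0.189, where 4.73% of 317 genes were called and 17.7% had an unadjusted p under 0.05. Over the alternatives the adjusted p was 0.124 to 0.493. The sum of 6 proximal markers in TAL was 157 to 195 CPM in the vehicle and 136 to 158 CPM in the furosemide libraries, with means of 178.5 and 150.1 CPM, and its part in the result was not tested.

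Genes of the wider pathway were not called in the proximal classes either. Lists of other oxidising enzymes, other conjugation enzymes, regulators, organic ion carriers and proximal metabolic enzymes had 3, 1, 5, 6 and 10 genes in the panel, and of those tested 0 were higher and 0 lower in each of Proximal s1/s2, s1/s2/s3 and s2/s3. In this order of classes the median log2 changes were 0.16, 0.072 and -0.054 for other oxidising enzymes, -0.012, 0.14 and 0.28 for the 1 other conjugation enzyme and 0.09, 0.066 and 0.15 for regulators. Organic ion carriers had -0.069, -0.11 and 0.07, proximal metabolic enzymes -0.059, -0.025 and 0.0035 and the members -0.077, -0.035 and 0.071. The medians of all genes tested were -0.022, 0.016 and 0.035. Slc22a6 and Slc22a8, organic anion carriers, are named here after their values were seen. Their log2 changes in Proximal s2/s3 were 0.17 ± 0.16 and 0.48 ± 0.26 (SE). Slc22a6 had the other sign in Proximal s1/s2 (-0.25 ± 0.13) and s1/s2/s3 (-0.23 ± 0.17). Slc22a8 had 0.23 ± 0.13 and 0.16 ± 0.12 in these classes, and neither gene passed in any proximal class.

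Outside the proximal classes 3 genes of these lists passed, and they too are named after their values were seen. Inmt, which conjugates amines with a methyl group, was higher with furosemide in the distal convoluted tubule (DCT). It measured 1869, 1311 and 1537 scaled CPM with vehicle (libraries 1, 3, 5) against 3059.8, 3277 and 3822 with furosemide (libraries 2, 4, 6), without overlap, a log2 change of 1.10 ± 0.16 (SE) with an edgeR adjusted p of 0.00597, in a class where 4.73% of genes were called. In TAL, G6pc, the last enzyme of glucose synthesis, and Nr0b2, a nuclear receptor that represses transcription, were lower. Their log2 changes were -1.80 ± 0.27 (SE) and -0.58 ± 0.10 (SE), with edgeR adjusted p of 0.0177 and 0.0358, where 4.73% of 317 genes were called. There 1 of 7 tested proximal metabolic enzymes, 1 of 5 regulators and 0 of 4 organic ion carriers passed. In DCT 0 of 7, 0 of 5 and 0 of 4 passed in that order, and Inmt was the 1 other conjugation enzyme tested.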

How the data were processed

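Single kidney cells of 3 vehicle and 3 furosemide libraries were captured on BD Rhapsody beads, per the labels' protocols. The authors deposited whole-number counts per cell for a panel of 456 genes, with a table giving each cell's library, treatment and class. Bowtie2 2.2.9 is named in the submitters' processing notes. What a count stands for (read or molecule), the genome build and the counting step are not given in the sources used here. Doublets had been removed by the authors, per the name of the deposited file, and no further doublet call was made. That name also speaks of equal cell numbers. How the authors chose cells for this is not given in the sources used here.

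Counts were summed per library and class, and all panel genes were fitted with edgeR 4.0.16 in R 4.3.3 (quasi-likelihood test, TMM scaling, filter on low counts), with Benjamini-Hochberg adjustment per class at 0.05. Levels across classes are plain CPM, and treatment values are CPM on the TMM-scaled total (scaled CPM). DESeq2 1.42.0 and limma 3.58.1 (voom) were alternatives, beside other scalings, no filter, thinning to 500 counts, leaving out the top 5% of totals, equal cell numbers and leaving out each library. The scripts were tested on simulated data. Named genes were the 9 members, the 3 panel genes most like each over the classes, and list genes that passed in a proximal class. Others are marked where named. Some results are not reported here. The members and lists were chosen with earlier results of these data known. The 6 proximal markers summed in other classes were chosen in the same way. The table held 0 columns of other samples.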

Additional observations from a re-analysis of the deposited data

How the results depend on the processing

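No member was called in the proximal classes, in their sum, in the other 12 classes or between proximal classes under any alternative run, and the lowest adjusted p over the tools was 0.0535 (edgeR), for Cyp4b1 in Thin Limb without furosemide library 2. No paired analysis was possible because the deposited library numbers could not be tied to the replicate numbers of the sample titles. The cells with shared identifiers and Kap in the total were left out as choices made after seeing the data. Some uncalled log2 changes turned sign. With equal cell numbers Cyp2e1 in Proximal s1/s2 was 0.00697. Acy3 in Proximal s1/s2 was 0.00603 with library size alone, 0.0115 with equal cell numbers and 0.00526 without cells of shared identifiers. Acy3 in Proximal s1/s2/s3 was 0.0180 with library size alone, 0.0772 after thinning, 0.0270 without the top totals and 0.0144 with equal cell numbers. Glyat in Proximal s2/s3 was -0.0266, -0.0222, -0.0465 and -0.0199 in that order of settings. The cause was not tested. Leaving out 1 library at a time, the log2 change in Proximal s1/s2 ran from -0.374 to 0.147 for Cyp2e1, -0.175 to 0.0404 for Glyat and -0.0934 to 0.0555 for Acy3. In Proximal s1/s2/s3 it ran from -0.249 to 0.000603 for Cyp2e1, -0.00393 to 0.389 for Cyp2a4, -0.437 to 0.0587 for Acsm3, -0.0591 to 0.168 for Glyat and -0.195 to 0.157 for Acy3. In Proximal s2/s3 it ran from -0.119 to 0.175 for Cyp2e1, -0.0149 to 0.269 for Cyp4b1, -0.274 to 0.0372 for Acsm2, -0.570 to 0.301 for Acsm3, -0.0768 to 0.167 for Glyat and -0.0784 to 0.272 for Acy3. Of the other values, 404 kept their direction and side and 16 moved by more than the spread, all of them levels, shares or class ratios. Thinned shares and small classes limit what the depth can show.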
